A study of Pan troglodytes with 50 samples.

Results

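Human accelerated regions (HARs) are sequences that stayed nearly the same across mammals and then gained many substitutions on the human lineage. In a lentiviral reporter assay of their human and chimpanzee alleles, 96 of 2002 HAR alleles gave less reporter RNA per DNA copy than the negative controls, by a fixed margin. Members were chosen by their RNA/DNA ratio in the HAR control library, a pool of 2590 elements read in 3 cultures of Pt2A at N2. The choice used the mean over those cultures of log2((RNA + 1)/(DNA + 1)), with counts summed over the barcodes of an element and scaled to library totals. From this mean the median of the 120 elements named as negative controls was subtracted, and an allele was a member at -0.25 or less. Because these values chose the members, the control cultures are described below and not tested, and the tests come from the HAR library, a pool of 2440 elements that was delivered to other cultures.

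Pt2A and Pt5C are chimpanzee induced pluripotent stem cell lines, labelled telencephalon once differentiated, and were read as neural progenitors at N2 and as glial progenitors at N3. Each is 1 line, and the labels do not describe its donor. All groups carried an integrated lentiviral pool for 4 days, with no other treatment named, and DNA and polyA RNA were extracted with a kit that yields both. The HAR library was read in 3 cultures each of 4 groups, and lists of values below keep the order Pt2A N2, then Pt5C N2, then Pt2A N3, then Pt5C N3. The cultures of a group are labelled independent. The edgeR p-values below rest on the spread between cultures, estimated over all groups of a pool together. Barcode-based p-values rest on the spread between the barcodes of an element. Neither kind measures the spread between animals. Reporter counts hold no marker of cell type, so the labelled stages were not checked against markers here.

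In this assay each element sits upstream of a minimal promoter and a transcribed barcode, and a sequence that recruits activators raises the RNA of its barcodes over their DNA. A sequence that recruits repressors, such as REST at its neuronal sites, ZEB2 at E-boxes or HES proteins at N-boxes, can lower RNA under the level of the promoter alone. A promoter that is already weak leaves little room below it. Negative controls are sequences taken to be inactive, and their median is the zero of every activity below, on the log2 scale.

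The sequences of the HAR alleles themselves are not printed, since the files used here give them by name and coordinates only. What is given in letters is the set of shuffled HARs, in which the bases of a HAR were put in another order, and these were read in the same control cultures as the members. Such copies existed for 11 HARs that hold a member. The 4 below are examples, as other HARs described later, such as 2xHAR.142 and 2xHAR.119, also had a copy. Capitals mark each CG pair, and each is written 5′ to 3′.
shuffled 2xHAR.260: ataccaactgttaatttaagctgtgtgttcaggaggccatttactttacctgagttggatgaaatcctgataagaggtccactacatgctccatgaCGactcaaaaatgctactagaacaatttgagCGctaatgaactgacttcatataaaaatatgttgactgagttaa
shuffled 2xHAR.227: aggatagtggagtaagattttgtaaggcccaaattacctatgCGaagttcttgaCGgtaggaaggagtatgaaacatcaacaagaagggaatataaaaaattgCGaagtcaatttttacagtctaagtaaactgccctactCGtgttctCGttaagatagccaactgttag
shuffled 2xHAR.402: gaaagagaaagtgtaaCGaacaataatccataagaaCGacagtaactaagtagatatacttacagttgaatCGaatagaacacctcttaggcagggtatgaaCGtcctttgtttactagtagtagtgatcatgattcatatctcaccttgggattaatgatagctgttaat
shuffled 2xHAR.388: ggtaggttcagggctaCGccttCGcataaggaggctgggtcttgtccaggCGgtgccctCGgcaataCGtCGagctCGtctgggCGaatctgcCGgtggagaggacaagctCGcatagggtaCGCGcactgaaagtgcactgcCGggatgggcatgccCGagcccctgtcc
Set against the negative controls, the shuffled 2xHAR.260 was at 0.15, 0.09 and 0.17 in the 3 control cultures, and the human and chimpanzee 2xHAR.260 alleles were at -0.33 and -0.40 on average. Shuffled 2xHAR.402 was at 0.34, 0.21 and 0.31, above its alleles at -0.36 (human) and -0.27 (chimpanzee). Shuffled 2xHAR.388, the most GC-rich of the 11 at 63.7% GC with 14 CG pairs, was at 0.34, 0.31 and 0.33, against -0.30 and -0.26 for its alleles. Shuffled 2xHAR.227, at 38.0% GC, was the 1 copy of the 11 under the negative controls, at -0.15, -0.14 and -0.09, and human 2xHAR.227 stood lower still at -0.39. Over the 11 copies the values ran from -0.13 to 0.52 with a median of 0.20, and the other 139 shuffled HARs had a median of 0.16. No shuffled copy of 150 reached -0.25, and the lowest stood at -0.245. The tile of a HAR that was shuffled is not named, and the members' low values were part of the choice, so the gap between allele and copy is a description.

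The 96 members were 49 chimpanzee and 47 human alleles, which is 4.92% of chimpanzee and 4.67% of human alleles in the pool. They came from 67 HARs. Of these HARs, 44 gave 1 member, 18 gave 2, 4 gave 3, and 2xHAR.121 gave 4 of its 6 alleles and tiles. All 3 elements of 2xHAR.543 were members, as were both elements of 2xHAR.115, 2xHAR.260, 2xHAR.388, 2xHAR.402, 2xHAR.51, 2xHAR.516, 2xHAR.533 and 2xHAR.545. The human and chimpanzee alleles of a tile cover the same bases, and some tiles of a HAR overlap, so such members are not separate sequences.

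By chromosome (hg19, positions from the element names), 2 held 16 members of 203 alleles, 4 held 12 of 156, 14 held 11 of 122 and 16 held 10 of 115. Chromosome 1 held 2 of 113 and chromosome 5 held 1 of 65. Of the 714 HARs in the HAR library, 67 held a member. Some member HARs lay within 1000000 bases of one another, and examples follow. Whether this exceeds what the positions of the tested HARs would give was not tested. On chromosome 16, HAR83, 2xHAR.121 and 2xHAR.35 held 6 members, 4 of them from 2xHAR.121, between chr16:78925379-79202570, where 4 HARs had been tested. General knowledge places that interval within WWOX, a large fragile-site gene of an oxidoreductase. Also on chromosome 16, 2xHAR.321, 2xHAR.128 and 2xHAR.505 gave 1 member each between chr16:6920696-7359958, out of 5 HARs tested there. That stretch is known to lie in RBFOX1, which encodes a neuronal splicing regulator. On chromosome 14, 2xHAR.142 and 2xHAR.157 held 4 members between chr14:34048648-34160340 with 4 HARs tested, in NPAS3, a neural bHLH-PAS transcription factor gene known for its many HARs. Gene names here are background from general knowledge, as no hg19 annotation was used, and whether a member is intronic or intergenic was not looked up.

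In the control cultures the members had a median of -0.29 and ran from -0.58 to -0.25, which on a linear scale is 18.1% below the negative controls at the median and 33.1% at the lowest. Their spread between cultures was small, with SDs from 0.0018 to 0.12 (n = 3). All 2002 HAR alleles had a median of 0.078, and 39.2% were under 0. The share at or below -0.25 was 4.80% of HAR alleles, 11.7% of negative controls (14 of 120), 7.59% of positive controls (11 of 145), 5.78% of variants that mix human and chimpanzee bases (10 of 173) and 0 of 150 shuffled HARs. A larger share of the negative controls than of the HAR alleles therefore met the same cut. The threshold had no gap around it. Just inside were 2xHAR.115 chimpanzee at -0.251, HAR14 human tile 1 of 2 at -0.251 and 2xHAR.465 human at -0.2503. Just outside were HAR88 chimpanzee tile 2 of 2 at -0.2493, 2xHAR.72 chimpanzee at -0.2488 and 2xHAR.526 human at -0.2487.

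The lowest member was tile 1 of 3 of HAR76 in its human allele, at chrX:85465762-85465932, a position that general knowledge places in DACH2, a developmental transcription cofactor gene. Its control cultures read -0.55, -0.58 and -0.61. They rest on 6700, 6341 and 6579 RNA counts against 3829, 3762 and 4079 DNA counts. The chimpanzee allele of the same tile read -0.51, -0.49 and -0.49. The values of the 2 alleles did not overlap. Next was HAR117 chimpanzee tile 2 of 2 (chr18:22754789-22754959), at -0.52, -0.44 and -0.47. After these came 2xHAR.260 chimpanzee at -0.40 ± 0.051, 2xHAR.227 human at -0.39 ± 0.053, HAR14 human tile 2 of 2 at -0.37 ± 0.0073, 2xHAR.111 human tile 1 of 2 at -0.37 ± 0.028 and 2xHAR.543 chimpanzee tile 1 of 2 at -0.37 ± 0.03 (mean ± SD, n = 3).

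Members had more DNA than most HAR alleles. In the control cultures their median DNA level was 366 CPM (counts scaled to a common library total), against 296 for all HAR alleles, and their median RNA level was 262 CPM against 279. In the HAR library the members exceeded the alleles in both, with median DNA levels from 398 to 422 CPM against 318 to 320, and median RNA levels from 357 to 385 CPM against 307 to 314. With the alleles ordered by DNA level in the control cultures and cut into 4 bins, the bins from low to high held 4 members of 501, 20 of 500, 37 of 500 and 35 of 501. The median activity in those bins was 0.30, 0.063, 0.014 and 0.018. Log2 DNA level and activity had r = -0.17 over the 2002 alleles in the control cultures and between -0.10 and -0.20 in Pt5C N2, Pt2A N3 and Pt5C N3, but 0.27 in Pt2A N2, where the points share libraries and DNA stands in both measures. The part of DNA level in the members' low ratios was not tested. Members had a median of 81.6 barcodes per DNA library and all alleles 80.3.

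Of the 12 cultures of the HAR library, those of Pt2A N2 stood apart, and so did replicate 3 of Pt5C N2. Over the 2002 alleles, activity in the control cultures had r = 0.88 with Pt5C N3, 0.80 with Pt5C N2 and 0.73 with Pt2A N3, but -0.16 with Pt2A N2, although line and stage were those of the control cultures. With the N3 DNA of Pt2A in place of its own DNA, the r of Pt2A N2 became 0.58. The DNA libraries of replicates 1 and 3 of Pt2A N2 differed by little more than sampling noise. Their chi-square was 1.06 per degree of freedom, where other DNA pairs of a group ran from 1.48 to 6.10. RNA pairs of a group ran from 1.60 to 18.5. In both DNA and RNA the highest were pairs with Pt5C N2 replicate 3. Whether a DNA library of Pt2A N2 was exchanged or entered more than once was not tested, and this bears on each value of Pt2A N2, on the stage change in Pt2A and on the line difference at N2. The spread behind the edgeR p-values was estimated over all groups, these libraries included. Total counts ran from 6641422 to 16823119 in DNA and from 5410033 to 41867492 in RNA of the HAR library, and from 8649221 to 9464926 and 24263262 to 25951194 in the control library. Both pools were built from the same barcoded copies, with 7892 of the members' 8030 HAR-library barcodes also counted in the control library, so the HAR library repeats the cultures but not the barcodes.

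Whether the alleles were also low in other cultures was asked first, in the HAR library, and most were, in 3 of the 4 groups. In Pt5C N3 the members had a median activity of -0.19, against 0.025 for all HAR alleles, and all 96 had a mean below 0. There 93 were lower than the negative controls and 0 higher by edgeR's quasi-likelihood test, adjusted over all 2440 elements, of which 35.7% were called lower. In Pt2A N3 the median was -0.14, 94 means were below 0 and 85 members were called lower, against 28.5% of all elements. In Pt5C N2 the median was -0.12, 95 means were below 0 and 83 members were called lower, against 27% of all elements. Of all HAR alleles, 44.9%, 41.7% and 44.6% had a mean below 0 in Pt5C N3, Pt2A N3 and Pt5C N2. Higher calls numbered 0 in Pt5C N3, Pt2A N3 and Pt5C N2, against 37.6%, 36.9% and 31.8% of all elements. On a linear scale the median member stood 12.2%, 9.28% and 8.25% under the negative controls in Pt5C N3, Pt2A N3 and Pt5C N2, smaller falls than the 18.1% of the cultures that chose it.

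Pt2A N2 gave another picture. The members' median there was -0.0043, beside -0.0041 for all HAR alleles, and 52 of 96 means were below 0, beside 51.6% of all HAR alleles. Of the members 24 were called lower, against 33.9% of all elements, and 17 were called higher, against 27.4%. A share of 24 in 96 is under the background. With the N3 DNA of Pt2A as the denominator the median was -0.10, 86 means were below 0 and 66 members were called lower, against 30.9% of all elements, with 4 called higher, against 20.3%. The members' DNA in Pt2A N2 was below that of Pt2A N3 for 93 of 96, by a median of 0.083 on the log2 scale, and for all alleles the median fall was 0.034. Leaving out replicate 1, 2 or 3 of Pt2A N2 left 14, 14 and 15 members called lower there.

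Over the groups, 21 members were called lower in all 4, where 8.16% of all elements were, and 74 were called lower in the 3 groups other than Pt2A N2, against 18.7%. The count of 21 became 12, 13 and 13 without replicate 1, 2 and 3 of Pt2A N2, and 59 with N3 DNA, against 16.7% of all elements. Counted by groups of any kind, 55 others were lower in 3, 16 in 2 and 4 in 1. Shares of all elements for these 3 counts were not taken. In a single group 27% to 35.7% of all elements were called lower. Of the 9 cultures outside Pt2A N2, 75 members were below 0 in all, 16 in 8, 4 in 7 and 1 in 4. Of all HAR alleles, 18.9% were below 0 in all 9 and 8.54% in 8. Few kept the depth that chose them. Means at or below -0.25 were reached by 0, 2, 5 and 14 members in the 4 groups, where 201, 2, 11 and 23 of all HAR alleles reached it. Of the 120 negative controls, 18, 0, 1 and 0 reached it in these groups, and 14 in the control cultures. Outside Pt2A N2 this depth was thus rare among the controls as well, so the cut is not alike between the libraries. Negative controls were themselves called lower than their median 40, 35, 41 and 44 times of 120 in the same order, so a call of lower was common among controls too.

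These calls rest on the spread between cultures that received the same barcoded copies. With the spread between the barcodes of an element as the error, in a normal test over all elements, 83 members were called lower in Pt5C N3 (20.1% of all elements), 61 each in Pt2A N3 (13.6%) and Pt5C N2 (12.3%), and 7 in Pt2A N2 (22.3%). Those 7 were also the members called lower in all 4 groups by this error, against 1.72% of all elements. They were both alleles of HAR76 tile 1, 2xHAR.39 chimpanzee tile 2 of 2, HAR183 chimpanzee tile 2 of 2, 2xHAR.142 human, 2xHAR.157 human tile 1 of 3 and 2xHAR.554 human tile 1 of 2, of which 2xHAR.142 and 2xHAR.554 are named outside the rule for named members, after their values were seen. In 41 members the call held by this error in the 3 groups other than Pt2A N2, against 6.48% of all elements. Of the members' 8030 barcodes, 7892 were also in the control library that chose them. Neither error takes account of that choice, so a low reading that belongs to the barcodes would stay in these counts. A member's barcode-based SE was 0.045 to 0.052 at the median over the groups, and its SD between cultures 0.028 to 0.044.

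HAR76 tile 1 was lower in every culture of the HAR library. At N2 the human allele read -0.17, -0.19 and -0.13 in Pt2A and -0.32, -0.24 and -0.24 in Pt5C. At N3 it read -0.31, -0.30 and -0.37 in Pt2A and -0.34, -0.36 and -0.28 in Pt5C. The 3 cultures of Pt2A N2 were the highest and the other groups overlapped one another. Its group means were -0.16 ± 0.027, -0.26 ± 0.048, -0.33 ± 0.038 and -0.33 ± 0.043 (SD, n = 3), with edgeR adjusted p of 3.1e-07, 1.5e-10, 1.6e-12 and 3.7e-12. The chimpanzee allele, on other barcodes, read -0.13 ± 0.018, -0.23 ± 0.037, -0.27 ± 0.0076 and -0.33 ± 0.04 in the same order and was below 0 in 12 of 12 cultures. Named for its HAR and after its values were seen, tile 2 of the chimpanzee HAR76 was a member as well, at -0.26 in the control cultures, and its human counterpart was at -0.22.

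The fall of HAR76 was spread over barcodes. In Pt5C N3, 71 of 91 barcodes of the human tile with at least 10 DNA counts had a ratio under that of the negative controls, and in Pt2A N3 77 of 90. For HAR117 chimpanzee tile 2 the numbers were 67 of 78 and 60 of 76. The barcodes of these alleles with most DNA counts over the 12 cultures are shown, 15 bases each, because their ratios are the best counted of each element. Together they held 14.03% of the DNA counts of HAR76 human tile 1 and 21.7% of those of HAR117 chimpanzee tile 2 in Pt5C N3.
HAR76 human tile 1 of 3, barcode 1: tattcctaagtaatc
HAR76 human tile 1 of 3, barcode 2: catcggataacttgg
HAR76 human tile 1 of 3, barcode 3: tgcttatcctggact
HAR76 human tile 1 of 3, barcode 4: tgacctgcggcagag
HAR117 chimpanzee tile 2 of 2, barcode 1: taggttccaattggc
HAR117 chimpanzee tile 2 of 2, barcode 2: tagtaggccaggttc
HAR117 chimpanzee tile 2 of 2, barcode 3: aatgcgctccggttc
HAR117 chimpanzee tile 2 of 2, barcode 4: caactccgctccgac
In Pt5C N3, over its 3 cultures, the HAR76 barcodes had 680, 566, 378 and 412 DNA counts and 605, 369, 365 and 246 RNA counts, and stood at -0.066, -0.52, 0.12 and -0.64 against the negative controls. Thus 3 of these 4 were below 0. The HAR117 barcodes had 1227, 971, 967 and 744 DNA counts and 948, 782, 591 and 469 RNA counts, and stood at -0.27, -0.15, -0.59 and -0.58. Over all members the median share of barcodes under 0 was 73.9% in Pt5C N3, 69.0% in Pt2A N3, 70.3% in Pt5C N2 and 57.3% in Pt2A N2, against 54.0%, 53.4%, 55.2% and 57.1% for all HAR alleles.

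HAR117 tile 2 was near 0 in Pt2A N2 and low elsewhere. The chimpanzee allele read -0.024, 0.0044 and 0.032 there, across 0, and -0.21 ± 0.08, -0.21 ± 0.031 and -0.30 ± 0.056 in Pt5C N2, Pt2A N3 and Pt5C N3 (SD, n = 3), each called lower with edgeR adjusted p of 1.9e-08, 7e-08 and 9.3e-11. Its human allele gave -0.18 ± 0.057, -0.22 ± 0.023 and -0.26 ± 0.065 in those groups. HAR41 chimpanzee tile 1 of 2 (chr5:164732568-164732738) and 2xHAR.3 chimpanzee tile 1 of 2 (chr2:236773921-236774091) were called lower by edgeR in all 4 groups, but not by the spread between barcodes. The first was lowest at -0.30 ± 0.032 in Pt5C N3 and the second at -0.29 ± 0.039 in Pt2A N3. Tile 2, which shares 148 and 130 of their bases, was high in the control cultures. It read 0.24 (chimpanzee) and 0.21 (human) for HAR41, and 0.51 and 0.43 for 2xHAR.3. Human tile 1 was at -0.18 for HAR41 and -0.24 for 2xHAR.3. 2xHAR.39 chimpanzee tile 2 of 2 (chr2:21475371-21475541) read -0.14, -0.13 and -0.10 in Pt2A N2. In Pt5C N3 it was lower, at -0.34, -0.30 and -0.26, with no overlap. Its means in Pt5C N2 and Pt2A N3 were -0.25 ± 0.053 and -0.24 ± 0.068. 2xHAR.402 human (chr4:20340080-20340250) gave -0.061 ± 0.0071, -0.22 ± 0.07, -0.24 ± 0.073 and -0.28 ± 0.027 over the groups, and was below 0 in all 12 cultures. 2xHAR.157 human tile 1 of 3, in NPAS3, was called lower in all 4 groups, at -0.12 ± 0.011, -0.21 ± 0.011, -0.15 ± 0.072 and -0.19 ± 0.061.

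Other members had little left of the low value in their mean over the 12 cultures of the HAR library, which includes Pt2A N2. 2xHAR.119 chimpanzee (chr2:142547682-142547852), at -0.26 in the control cultures, had the highest mean over the 12 cultures, 0.0061 ± 0.085. It was called lower in Pt5C N3 alone, at -0.10 ± 0.034, and higher in Pt2A N2, at 0.11 ± 0.043. 2xHAR.388 chimpanzee (chr10:8091568-8091738), which general knowledge places a short way upstream of GATA3, a zinc-finger transcription factor gene, was called lower in Pt2A N3 alone, at -0.077 ± 0.048. It read 0.14, 0.11 and 0.11 in Pt2A N2. HAR102 chimpanzee tile 1 of 2 was called lower in Pt5C N3 alone, at -0.12 ± 0.074, and 2xHAR.115 chimpanzee in both N3 groups, at -0.066 ± 0.025 in Pt2A and -0.11 ± 0.029 in Pt5C. 2xHAR.157 chimpanzee tile 2 of 3 averaged -0.015 ± 0.10 over the 12 cultures, with means of 0.13, -0.045, -0.0095 and -0.13 over the groups. The members of this paragraph were picked by the mean over 12 cultures, so a high value in Pt2A N2 favours being picked.

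The other allele and the overlapping tiles of a HAR carry other barcodes. Every member had at least 1 such relative that shares 120 or more of its bases. Of 117 relatives from the other species, 43 were members themselves, as were 6 of 26 same-species tiles, so their control values were in part set by the rule and are not counted here. The 85 relatives that were not members had a median of -0.13 in the control cultures, where leaving out members removes the lowest, and 71 were below 0, beside 39.2% of all HAR alleles. In the HAR library their medians were 0.034, -0.050, -0.045 and -0.11 over the groups. Of these 85, 11, 43, 38 and 60 were called lower by edgeR, beside 33.9%, 27%, 28.5% and 35.7% of all elements. The highest relative in the control cultures stood at 0.51, so an overlapping tile was not always low.

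Human and chimpanzee alleles of 1 tile formed 839 pairs, of which 60 held a member. In 14 pairs both alleles were members, in 23 the human allele alone and in 23 the chimpanzee allele alone. The 14 pairs in which both were low had mean differences from -0.075 to 0.078. Human minus chimpanzee over the 12 cultures was -0.032 ± 0.048 for HAR76 tile 1, 0.0058 ± 0.043 for HAR117 tile 2 and 0.011 ± 0.045 for 2xHAR.260. It was -0.058 ± 0.06 for 2xHAR.460 tile 2 and -0.075 ± 0.047 for 2xHAR.402, whose human allele was the lower in 12 of 12 cultures. 2xHAR.121 tile 1, 2xHAR.545 and 2xHAR.381 tile 3, the last in ZEB2 by general knowledge, gave -0.035, -0.023 and -0.015. The highest was 2xHAR.51, named after its values were seen, at 0.078 ± 0.053, with the human allele higher in 12 of 12 cultures. Its difference in Pt5C N3 was 0.12 ± 0.01 (SD, n = 3), with an adjusted p of 0.012 by edgeR and 0.45 by the barcode-based normal test. None of the 14 was called, where a call needed both the edgeR test of the difference and the test with the spread between barcodes. Missing the threshold does not show that the alleles act alike.

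Called allele differences were few among the 60 pairs. Over the groups there were 0, 2, 1 and 1, against 5.36%, 3.22%, 2.5% and 3.46% of all 839 pairs. With the human allele the higher one, the calls numbered 0, 1, 0 and 1, against 2.38%, 1.67%, 1.31% and 1.79% of all pairs. With the human allele the lower one they numbered 0, 1, 1 and 0, against 2.98%, 1.55%, 1.19% and 1.67%. In Pt2A N2 edgeR alone called 16 of the 60 and the barcode test alone called 0, beside 246 and 46 of all 839 pairs. A pair can hold a member because 1 allele is low in the control library, so these shares sit beside a choice that favours a difference. HAR183 tile 2 of 2 (chr17:6050406-6050576) had the largest difference, with the chimpanzee allele the lower one. The chimpanzee allele read -0.23, -0.21 and -0.21 in Pt5C N2 and -0.27, -0.17 and -0.12 in Pt5C N3, and the human allele averaged 0.062 and 0.11. Human minus chimpanzee was 0.27 ± 0.077 and 0.30 ± 0.10 (SD, n = 3), with barcode-based adjusted p of 0.033 and 0.015 by a normal test and edgeR adjusted p below them. In Pt2A the differences were 0.19 ± 0.046 at N2 and 0.21 ± 0.025 at N3 and were not called. The human allele was higher in 12 of 12 cultures.

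HAR34 and 2xHAR.121 tile 2 went the other way, with the human allele the member. HAR34 human (chr9:13751064-13751234) averaged -0.12 in Pt5C N2, where HAR34 chimpanzee averaged 0.074. The difference of -0.20 ± 0.029 was called there, with a barcode-based adjusted p of 0.016 by a normal test, and the human allele was lower in all 12 cultures. For 2xHAR.121 tile 2 of 3 (chr16:78992195-78992365) the call was in Pt2A N3, where the alleles averaged -0.16 (human) and 0.029 (chimpanzee). The difference was -0.18 ± 0.052, with a barcode-based adjusted p of 0.026 by a normal test, again with the human allele lower in 12 of 12 cultures. Whether these differences vary between groups was not tested.

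Stage was compared next, with differences centred over all elements. In Pt2A 82 members were lower at N3 than at N2 and 0 were higher, against 34.9% and 32.4% of all elements, with a median change of -0.17 beside -0.022 for all elements. In Pt5C 20 members were lower at N3 and 1 was higher, against 5.12% and 12.3%, with a median change of -0.067 beside 0.0013. The largest falls belonged to the same 3 members in both lines. 2xHAR.270 chimpanzee tile 2 of 2, tested within chr6:29555987-29556264, went from 0.15, 0.14 and 0.14 at N2 to -0.29, -0.32 and -0.22 at N3 in Pt2A, with no overlap, a change of -0.45 (edgeR adjusted p = 3.7e-11). In Pt5C it went from -0.029 ± 0.09 to -0.20 ± 0.034, a change of -0.16 (edgeR adjusted p = 0.0032). 2xHAR.121 human tile 3 of 3 fell by 0.44 in Pt2A and by 0.27 in Pt5C, and 2xHAR.156 chimpanzee tile 2 of 2 (chr9:16718104-16718274) fell by 0.32 and 0.15. All 3 were above the negative controls in Pt2A N2, at 0.14 ± 0.0047, 0.23 ± 0.048 and 0.15 ± 0.017, and in Pt5C N2 replicate 3 of each was above 0 while the other 2 were below. HAR34 human was the 1 member higher at N3 in Pt5C, from -0.14, -0.14 and -0.086 at N2 to -0.061, 0.0087 and 0.02 at N3, a change of 0.11 (edgeR adjusted p = 0.021), while in Pt2A it changed by -0.16.

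The count in Pt2A was smaller with another DNA. With N3 DNA under both stages, 61 members were lower at N3 in Pt2A and 16 in Pt5C, against 27.3% and 7.54% of all elements. Without Pt5C N2 replicate 3 the count for Pt5C was 8, and without Pt5C N3 replicate 3 it was 11. Shares of all elements were not taken in these smaller fits, so their background is not known. In the fit of all cultures it was 5.12%. Between lines, 87 members were lower in Pt5C than in Pt2A at N2 and 0 were higher, against 29.7% and 29.6% of all elements, and 46 were lower with N3 DNA, against 12.6%. At N3, 16 were lower in Pt5C and 4 higher, against 9.51% and 13.4%. The test of the difference between the stage changes of the lines called 42 members, all with the higher value in Pt5C, and 0 the other way, against 15.7% and 17.6%. That count was 39 with N3 DNA, against 18.6% of all elements, 21 with the differences centred on the negative controls, and 22, 27 and 24 without Pt2A N2 replicate 2, Pt5C N2 replicate 1 and Pt5C N2 replicate 2. Comparisons of a line or stage share cultures with one another, so their counts are not separate evidence.

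2 member HARs were also read as variants in the permutation library, a separate pool with no barcode in common with the HAR library, in Pt2A at N2 and N3. It held 128 variants of 2xHAR.142, with human or chimpanzee bases at its sites in differing combinations, the all-human and all-chimpanzee ones included. At N2 they had a median of -0.069 (range -0.21 to 0.069), and 116 were below 0 and 90 called lower, against 17.5% of the 1049 elements. At N3 the median was -0.067, and 122 were below 0 and 83 called lower, against 11.3%. The variant with human bases at all sites read -0.069, -0.057 and -0.078 at N2 and -0.074, -0.037 and -0.047 at N3, with edgeR adjusted p of 0.00016 and 0.0028. The variant with chimpanzee bases at all sites averaged -0.12 ± 0.037 and -0.073 ± 0.011 (SD, n = 3) at N2 and N3 and was called lower in both. In the HAR library 2xHAR.142 human averaged -0.10 ± 0.015 and -0.22 ± 0.019 in the same line, and its mixed variants had medians of -0.057 and -0.11 there. Low values of 2xHAR.142 were thus measured on other barcodes and in another pool, at N2 as well as at N3.

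HAR34 had 8 variants in the permutation library. They had medians of 0.070 at N2 and -0.017 at N3, and 1 of 8 was called lower at each stage. The variant with human bases at all sites read -0.053, -0.11 and -0.031 at N2, called lower with an edgeR adjusted p of 0.034, and 0.052, -0.011 and -0.081 at N3, where the cultures fell on both sides of 0. The variant with chimpanzee bases at all sites averaged -0.0064 ± 0.016 at N2 and -0.080 ± 0.037 at N3 (SD, n = 3). It was the 1 variant called lower at N3, with an edgeR adjusted p of 0.0024, and the all-human variant was not called there. The order of these at N2 was that of the HAR library, with the human sequence the lower. At N3 the means were in the reverse order with overlapping cultures. The difference between these variants was not tested.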

How the data were processed

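The authors deposited 1 table of barcode counts per RNA or DNA library, with the barcode and element name, and the element names give hg19 positions. The build is GRCh37 per the submitters' processing notes. The sources used here name no aligner or counter, and do not say whether the counts are reads or unique molecules, so intervals and tests carry any amplification noise. All barcodes of an element were added up. Activity is log2((RNA + 1)/(DNA + 1)) after scaling to library totals, minus the median of the negative controls. Calls against the negative controls, and between stages and lines, used edgeR 4.0.16 (quasi-likelihood, R 4.3.3) on the summed counts of all 24 HAR libraries, with Benjamini-Hochberg adjustment over 2440 elements at 0.05. Stage and line differences were centred by TMM scaling over all elements. An element needed 10 barcodes, and 0 elements were removed. A second error came from the spread between barcodes (a ratio SE and a normal test), and alleles of a pair were called different if both tests passed in 1 direction. DESeq2 1.42.0 was an alternative. Other steps used Python 3.11.15, numpy 2.4.6, pandas 2.3.3 and scipy 1.17.1, and the tests were tried on simulated data.

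The members and lists were chosen with earlier results of these data known. Named members are the 8 lowest by the rule, the 8 lowest means among those called lower in all 4 groups, up to 8 pairs with both alleles in the set, the 5 highest means over 12 cultures, 3 on each side of the threshold, up to 4 pairs with a called difference, members in the permutation library (0 under their own name) and up to 3 per direction with the largest called stage change in each line. H3K27ac peak lists were not used here.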

Additional observations from a re-analysis of the deposited data

Results flagged for a closer look

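Of the 37 named members, 21 had a stage change (N3 minus N2, log2) that differed between Pt5C and Pt2A by edgeR's test of that difference, adjusted over all elements, of which 15.7% were called in that direction. Of these members, 2xHAR.270 chimpanzee tile 2 of 2, 2xHAR.156 chimpanzee tile 2 of 2 and HAR34 human were named for their stage change. 2xHAR.388 chimpanzee and 2xHAR.115 chimpanzee were among the 5 highest means over 12 cultures, a pick that a high value in Pt2A N2 favours. The count of 21 is therefore a description. Each of the 21 had the larger value in Pt5C, as the members counted in the report did. The differences, Pt5C minus Pt2A, were 0.2899 for 2xHAR.270 chimpanzee tile 2 of 2, 0.2651 for HAR34 human, 0.2628 for 2xHAR.460 chimpanzee tile 2 of 2, 0.2422 for 2xHAR.111 human tile 1 of 2, 0.239 for 2xHAR.3 chimpanzee tile 1 of 2, 0.2197 for 2xHAR.388 chimpanzee and 0.1826 for 2xHAR.460 human tile 2 of 2. They were 0.1762 for 2xHAR.227 human, 0.173 for HAR183 chimpanzee tile 2 of 2, 0.1704 for 2xHAR.156 chimpanzee tile 2 of 2, 0.1625 for 2xHAR.115 chimpanzee, 0.1588 for HAR117 chimpanzee tile 2 of 2, 0.1479 for 2xHAR.402 human and 0.1436 for 2xHAR.121 chimpanzee tile 1 of 3. The smallest were 0.1369 for HAR117 human tile 2 of 2, 0.1346 for 2xHAR.545 chimpanzee, 0.1313 for 2xHAR.121 human tile 2 of 3, 0.1287 for HAR76 human tile 1 of 3, 0.1252 for 2xHAR.545 human, 0.1093 for 2xHAR.543 chimpanzee tile 1 of 2 and 0.1065 for 2xHAR.381 chimpanzee tile 3 of 3. With N3 DNA under both stages, 17 of the 21 had an adjusted p under 0.05 by edgeR, where 18.6% of all elements were called higher, and the exceptions were 2xHAR.402 human, 2xHAR.121 chimpanzee tile 1 of 3, 2xHAR.121 human tile 2 of 3 and 2xHAR.381 chimpanzee tile 3 of 3. All rest on Pt2A N2, whose activities stood apart from those of the control cultures, and the part of that in the differences was not tested.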

How the results depend on the processing

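The set held 196 alleles at a threshold of -0.2, 38 at -0.3 and 233 with the median of all elements as zero, and 75 to 97 with 1 control culture left out. With N3 DNA, calls in Pt2A N2 were 66 lower and 4 higher, 59 members were lower in all 4 groups, 46 were lower in Pt5C than Pt2A at N2, and 4 allele pairs differed in Pt5C N2. With the barcode spread as error, Pt2A N2 had 7 lower and 5 higher, 7 were lower in all 4 groups and 41 in the other 3. Centring on the negative controls gave 21 interaction calls. With edgeR alone, 16, 16, 22 and 20 of the 60 allele pairs with a member differed over the groups. Of all 839 pairs, 246, 221, 250 and 266 did. Leaving out 1 culture gave 14 to 27 lower and 13 to 17 higher calls in Pt2A N2, 74 to 91 lower in Pt5C N2, 81 to 87 in Pt2A N3, 89 to 93 in Pt5C N3, 12 to 24 in all 4 groups and 67 to 81 in the other 3. It gave 73 to 83 members lower at N3 in Pt2A, 8 to 27 in Pt5C, 73 to 91 lower in Pt5C at N2, 11 to 19 at N3, and 22 to 55 interaction calls. Shares of all elements were not taken with a culture left out. Same-numbered RNA and DNA libraries had correlated deviations from -0.14 to 0.080, and 7 of 12 RNA libraries correlated best with the DNA of their own number, so the numbers were not taken to pair samples. A replicate block gave 13 members lower at N3 in Pt5C and 36 interaction calls. The mean over 12 cultures turned in sign for 7 named members. With the barcodes split into 2 sets, it was in the latter set 0.030 for 2xHAR.111 human tile 1 of 2, 0.0041 for 2xHAR.460 chimpanzee tile 2 of 2, 0.023 for 2xHAR.388 chimpanzee, 0.035 for 2xHAR.115 chimpanzee and -0.081 for 2xHAR.119 chimpanzee. In the former set it was 0.012 for 2xHAR.157 chimpanzee tile 2 of 3 and 0.024 for HAR102 chimpanzee tile 1 of 2. 2xHAR.119 chimpanzee was also at -0.044 with N3 DNA, -0.0080 without the barcode with most RNA and -0.027 without Pt2A N2, and 2xHAR.388 chimpanzee at 0.00047 with a pseudocount of 5. The cause of these changes was not tested.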
